A study of Mus musculus with 9 samples.

Results

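Liver endothelial markers were examined in whole-liver RNA from 9 male C57BL/6 mice, 3 in each of 3 groups. The 10 genes were chosen by name from the 21873 genes listed. Stab1, Stab2, Lyve1, Clec4g, Fcgr2b and Oit3 mark the endothelium of the liver sinusoids. Cd34, Plvap, Vwf and Pecam1 were taken as markers of capillaries and larger vessels, though Pecam1 is a gene of all endothelium. The control group received normal saline by intraperitoneal injection for 8 weeks. The TAA group received thioacetamide, a compound that injures hepatocytes and leads to fibrosis, over the same 8 weeks. The recovery group received the same 8 weeks of thioacetamide and was then left without injections for another 8 weeks. All mice were 8 weeks old at the start and no engineered allele is named. Control and TAA mice were killed for liver collection 3 days after the final injection. At collection the recovery mice were thus 8 weeks older than the others, and this age difference and the recovery cannot be told apart.

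Sinusoidal endothelial cells line the smallest vessels of the liver. They carry open pores (fenestrae), lack an organized basement membrane, and take up waste molecules from blood through scavenger receptors. In chronic liver injury they can lose these pores, acquire a basement membrane and take on proteins of ordinary capillaries, a process called capillarization. CD34 is a classical marker of that state in liver sections. In RNA of whole liver, fewer cells of a type and less RNA per cell cannot be told apart.

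Values are FPKM (fragments per kilobase and M mapped fragments) divided by 1 scaling factor per library, called scaled FPKM here. Scaling lowered the TAA group by 0.64 on the log2 scale relative to the control group, so the deposited FPKM are also given beside the sinusoidal results and where a named call was lost in them. A gene was called, and is said to have risen or fallen, when its adjusted p in limma was under 0.05 and its fold change at least 2. Fold changes were computed on log2(scaled FPKM + 0.1), which draws those of weakly expressed genes towards 0. The estimated depth per library was 26.6 to 40.3 M fragments, and 14094 genes were tested. Albumin (Alb), the main secreted product of hepatocytes, had 17490 to 36900 scaled FPKM, the level of a liver library. All 10 markers were above 0 in every library and passed the filter on low values. The library of control 1 stood apart from the other controls. It was the lowest control for 6 of 6 sinusoidal markers, 3 of 4 capillary markers, 17 of 18 pan-endothelial genes and 5 of 5 Kupffer cell markers, against 36.4% of all tested genes. Values without it are given beside the sinusoidal results and where leaving it out changed a call.

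Among the 10 markers, Cd34 alone was called in scaled FPKM. It rose 12.1-fold in the TAA group and fell 5.80-fold in the recovery group. None of the 6 sinusoidal markers was called in any of the 3 comparisons. Across all tested genes, 17.0% were called higher and 8.02% lower in TAA mice than in controls. Between the TAA and recovery groups 14.3% were called lower and 7.12% higher in recovery.

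Cd34 (chr1:194938819-194961279 on the forward strand, GRCm38) encodes a sialomucin on the surface of capillary endothelium, of blood progenitors and of some fibroblasts. Its level was 0.522, 0.563 and 0.716 scaled FPKM in the control mice. In the TAA mice it was 10.2, 6.59 and 8.52 scaled FPKM. In the recovery mice it was 0.975, 1.74 and 1.44 scaled FPKM. The 3 groups did not overlap, with every recovery mouse between the control and the TAA mice. Between the control and TAA groups the log2 fold change was 3.59 (SE 0.19), with an adjusted p of 1.2e-05 in limma. Cd34 stood at rank 142 of the 14094 tested genes by rise. Against the TAA group, the recovery group differed by -2.54 on the log2 scale (SE 0.23), with an adjusted p of 0.0001 and no overlap, a separation that 31.0% of tested genes showed in that direction. Both changes were called in all 15 fits made with other settings or without 1 mouse, with a log2 fold change of 2.54 to 4.19 for the rise. An estimated 83 to 149 fragments per library lay behind the control values, 2432 to 3799 behind the TAA values and 220 to 453 behind the recovery values.

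The recovery mice lay between the other groups without a call against the control group. On the log2 scale, they stood above the control mean by 29.4% of the TAA difference in Cd34 (17.5%, 39.0% and 31.8% in the 3 mice, SD 10.9). Recovery against control, the log2 fold change was 1.06 (SE 0.24), with an adjusted p of 0.07, which is not called. A single limma fit over all 9 libraries gave the same fold change with an adjusted p of 0.03, which is called. Every recovery mouse lay above every control mouse, a separation shown by 14.6% of all tested genes in that direction.

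The sequence upstream of Cd34 is given because it is the one marker called, and that of Stab1 because it is the one sinusoidal marker with an adjusted p under 0.05 between the TAA and control groups. Both are the 250 bases before the RefSeq start (GRCm38.p6), written 5′ to 3′ on the gene's strand. Capitals mark matches, on either strand, to AGGAAG, the core bound by ETS factors that are active in all endothelium, or to ACAAT, a core of SOX factors.
Cd34, chr1:194938571-194938820, forward strand: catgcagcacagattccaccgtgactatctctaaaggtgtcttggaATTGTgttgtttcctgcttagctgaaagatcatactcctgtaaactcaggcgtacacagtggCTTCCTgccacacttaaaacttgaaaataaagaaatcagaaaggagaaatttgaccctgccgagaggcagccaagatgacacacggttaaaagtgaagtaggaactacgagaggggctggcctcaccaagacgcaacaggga
Stab1, chr14:31168642-31168891, reverse strand: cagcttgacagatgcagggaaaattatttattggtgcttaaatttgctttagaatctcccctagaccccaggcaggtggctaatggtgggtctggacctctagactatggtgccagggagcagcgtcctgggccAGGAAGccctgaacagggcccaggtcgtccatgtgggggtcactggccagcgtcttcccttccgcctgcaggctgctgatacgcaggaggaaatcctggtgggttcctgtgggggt
AGGAAG or its complement began 142 bases before the start in Cd34 and 116 bases before it in Stab1, and ACAAT or its complement 204 bases before the start in Cd34. AGGAAG was present in 29.5% of all 32851 RefSeq windows of this length and ACAAT in 27.7%. AGATAA, a core bound by GATA factors such as the sinusoidal regulator GATA4, was in 9.99% of all windows and in 0 of the 5 windows found for these markers (Stab1, Stab2, Clec4g, Fcgr2b and Cd34). These matches describe letters, not bound sites.

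**Figure D1:**
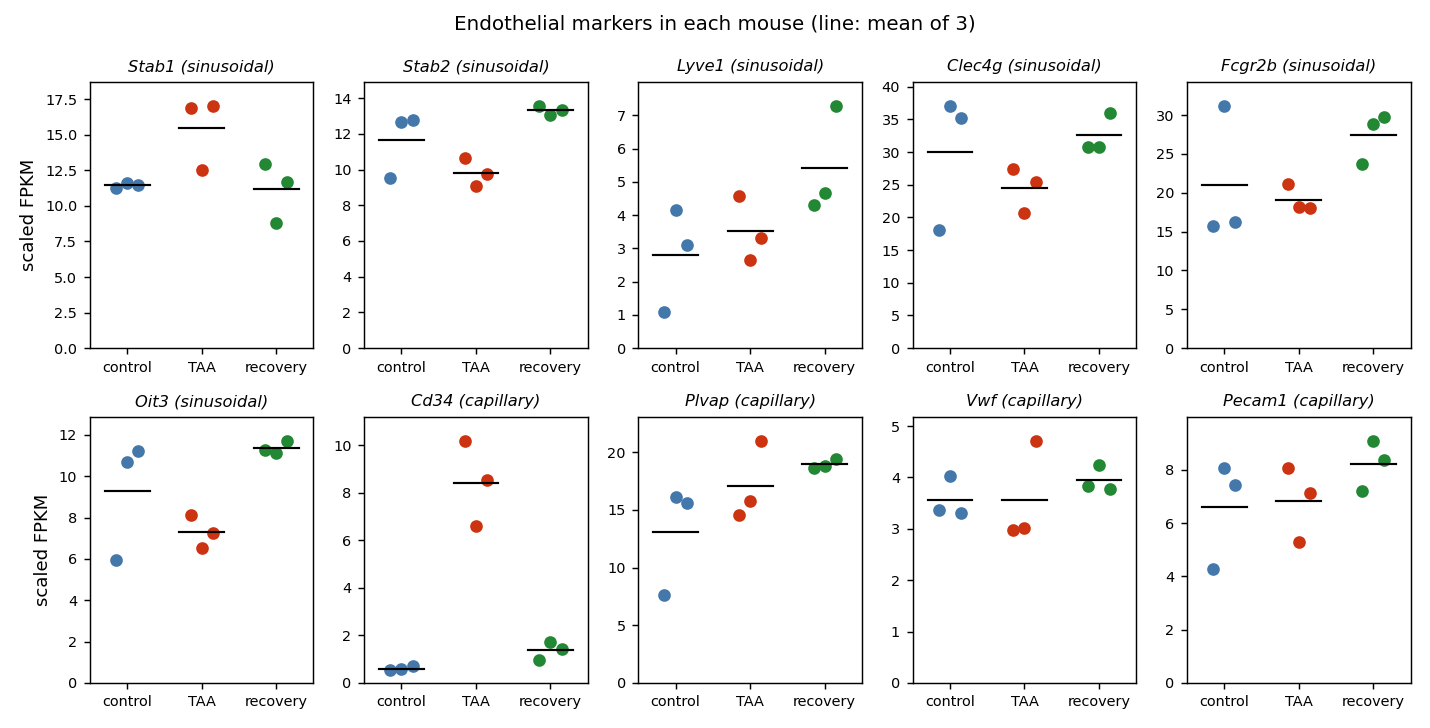
Scaled FPKM of the 6 sinusoidal and 4 capillary markers on linear axes that start at 0, with 1 point per mouse (1 to 3 from left to right) and a line at each group's mean. Cd34 is the one panel in which the TAA mice (6.59 to 10.2) stand far above the control mice (0.522 to 0.716), and the lowest control in most panels is control 1.

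The sinusoidal receptors were examined next, to ask whether sinusoidal markers were lower in the livers with more Cd34 RNA. No sinusoidal marker was called lower. The median log2 fold change of the 6 was -0.15 in scaled FPKM, against 0.020 over all tested genes, and 0.48 against 0.63 in the deposited FPKM. With all mice, 1 of 6 had an unadjusted p under 0.05 between the TAA and control groups in limma, and it was Stab1, which was higher. Stab1 was also the only sinusoidal marker with an adjusted p under 0.05. Without control 1 the results at an adjusted p under 0.05 differed. The median was -0.31, and Stab2, Clec4g and Oit3 were lower at that adjusted p in limma, each by less than 2-fold. Stab1 was no longer under it, as was also so on leaving out any other mouse but TAA 2. Of all tested genes, 25.0% were lower at that p without control 1.

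Stab1 and Stab2 encode the stabilins, large scavenger receptors that clear oxidized lipoproteins, hyaluronan and collagen fragments. Stab1 (chr14:31139013-31168641, reverse strand) was at 11.2, 11.6 and 11.5 scaled FPKM in the control mice. It was at 16.9, 12.6 and 17.0 scaled FPKM in the TAA mice and 13.0, 8.82 and 11.7 in the recovery mice. All TAA mice lay above all control mice, 1.34-fold on average, a separation that 32.6% of tested genes showed. The log2 fold change of 0.42 (SE 0.13) had an adjusted p of 0.028 but stayed under 2-fold, and 28.2% of tested genes were higher at that threshold of p. Leaving out 1 mouse gave an adjusted p of 0.0029 without TAA 2 and of 0.064 to 0.092 without any other, with 0.065 without control 1. In the deposited FPKM the change was 1.05 on the log2 scale and was called, as were 31.1% of tested genes in that direction. The recovery group was lower than the TAA group by 0.47 (SE 0.18, adjusted p = 0.055), and by 1.03 and called in the deposited FPKM, where 26.5% of tested genes were called lower. Stab2 (chr10:86841198-87008025, reverse strand) was at 9.52, 12.7 and 12.8 scaled FPKM in the control mice, 10.7, 9.06 and 9.77 in the TAA mice, and 13.5, 13.1 and 13.4 in the recovery mice. Control and TAA mice overlapped, with a log2 fold change of -0.23 (SE 0.14, adjusted p = 0.19). Without control 1 it was -0.38 (adjusted p = 0.024), and every TAA mouse lay below the remaining controls. Recovery mice were all above TAA mice, by 0.44 on the log2 scale (SE 0.09, adjusted p = 0.0061), which is 1.35-fold and was not called.

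The stabilins were also compared with each other within each library, which the scaling does not touch. Stab1 minus Stab2 was -0.01 ± 0.22 (log2, SD, n = 3) in the control mice, 0.64 ± 0.16 in the TAA mice and -0.27 ± 0.26 in the recovery mice. The TAA values, 0.47 to 0.79, lay above all control values, which reached 0.24, and above all recovery values, which reached -0.06. This contrast was made after the values were seen and carries no test. The cells behind the Stab1 and Stab2 RNA were not tested either.

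Lyve1 (chr7:110850607-110863239, reverse strand), a hyaluronan receptor shared by sinusoids and lymphatic vessels, was the sinusoidal marker with the lowest level. It was at 1.09, 4.16 and 3.10 scaled FPKM in the control mice, 4.58, 2.66 and 3.30 in the TAA mice, and 4.31, 4.67 and 7.26 in the recovery mice. Control 1 set the direction between the TAA and control groups, with a log2 fold change of 0.48 (SE 0.45, adjusted p = 0.40) with it and -0.07 without it. Recovery mice were all above the controls, by 1.08 on the log2 scale (SE 0.48, adjusted p = 0.24), and by 0.54 without control 1. With all mice, 14.6% of all tested genes showed that separation. Control 1 had an estimated 70 fragments on this gene.

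Clec4g (chr8:3707064-3720651, reverse strand) encodes LSECtin, a C-type lectin of sinusoidal endothelium, and had the highest level of the 10 markers in all 3 groups. It was at 18.1, 37.0 and 35.2 scaled FPKM in the control mice, 27.4, 20.8 and 25.5 in the TAA mice, and 30.8, 30.8 and 36.1 in the recovery mice. The TAA mice lay between control 1 and the other controls, with a log2 fold change of -0.23 (SE 0.27, adjusted p = 0.49). Without control 1 it was -0.57 (adjusted p = 0.012). Recovery mice were all above TAA mice, by 0.41 (SE 0.13, adjusted p = 0.027), with an adjusted p of 0.069 without TAA 2 and 0.084 without recovery 3.

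Fcgr2b (chr1:170958617-170976547, reverse strand) encodes the inhibitory Fc receptor for immunoglobulin G, which sinusoidal cells use to clear immune complexes and which B cells and macrophages also carry. It was at 15.8, 31.1 and 16.3 scaled FPKM in the control mice, 21.1, 18.1 and 18.1 in the TAA mice, and 23.8, 28.9 and 29.8 in the recovery mice. The TAA mice lay inside the control range, with a log2 fold change of -0.07 (SE 0.25, adjusted p = 0.83) that became 0.24 without control 2 and -0.25 (adjusted p = 0.45) without control 1. Recovery mice were all above TAA mice, by 0.52 (SE 0.12, adjusted p = 0.0073). Of its 50-base stretches, 4.38% also occur in other genes, mostly Fcgr3.

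Oit3 (chr10:59422958-59441778, reverse strand), a zona pellucida domain protein, is used as a marker of sinusoidal cells. It was at 5.94, 10.7 and 11.2 scaled FPKM in the control mice, 8.12, 6.51 and 7.26 in the TAA mice, and 11.3, 11.1 and 11.7 in the recovery mice. Between the TAA and control groups the log2 fold change was -0.30 (SE 0.24, adjusted p = 0.33), and it was -0.59 (adjusted p = 0.0073) without control 1. Recovery mice were all above TAA mice, by 0.64 (SE 0.11, adjusted p = 0.0018), or 1.56-fold.

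A 2-fold fall in the TAA group lay outside the interval of every sinusoidal marker. The lowest bound of the 95% confidence intervals was -0.86 on the log2 scale, for Clec4g, followed by -0.85 for Oit3. Over the 15 fits the lowest bounds were -1.07 for Clec4g and -1.04 for Oit3, and -0.96 or above for the other sinusoidal markers. Recovery against TAA, 4 of 6 had an adjusted p under 0.05 and no overlap between groups, all 4 higher and all under 2-fold, where 24.5% of tested genes were higher at that p and 29.4% did not overlap. All 6 had an unadjusted p under 0.05, 5 of them higher and Stab1 lower. In the fit over all 9 libraries Clec4g and Fcgr2b were not under that p after adjustment (0.19 and 0.086). The size of this difference, and its sign for Stab2, Clec4g and Fcgr2b, rested on the scaling. In the deposited FPKM the log2 difference was -0.12 for Stab2, -0.15 for Clec4g, -0.04 for Fcgr2b and 0.08 for Oit3, all overlapping. The median over all tested genes was -0.55 there, below all 4. In the deposited FPKM, the TAA group was in turn above the control group by 0.33 to 0.57 for Stab2, Clec4g, Fcgr2b and Oit3. The median over all tested genes in that comparison was 0.63.

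**Figure D2:**
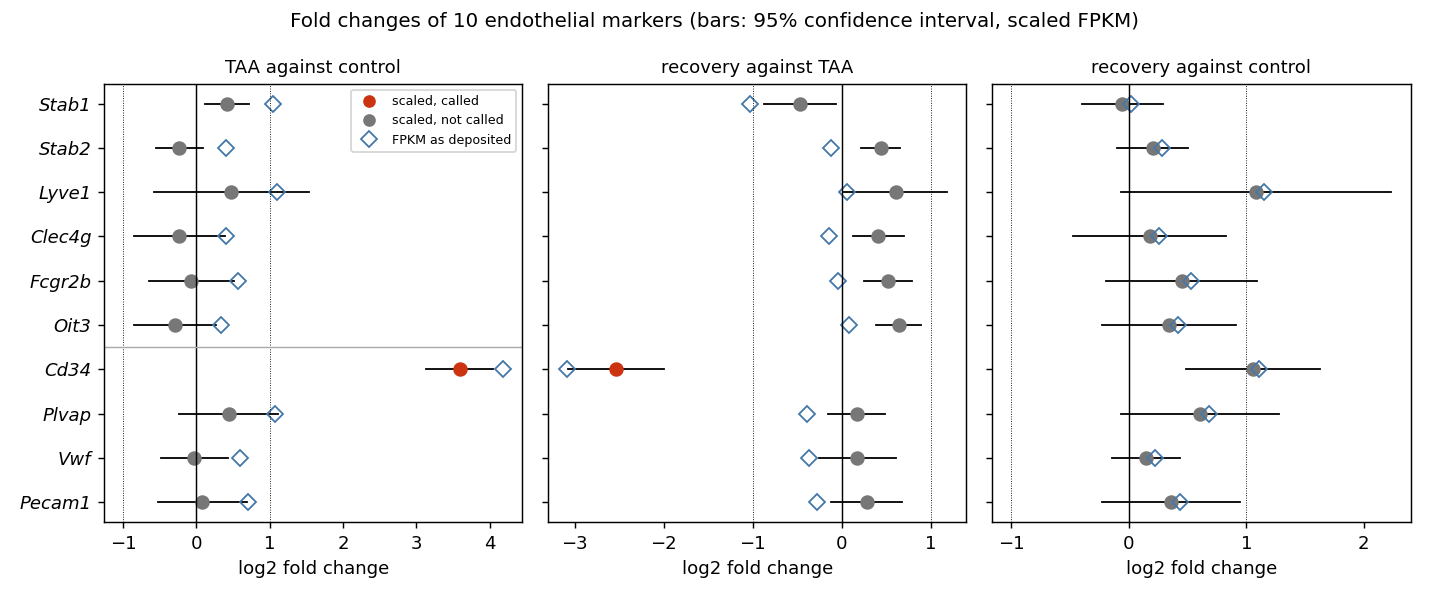
Log2 fold changes of the 10 markers in the 3 comparisons, as circles with 95% confidence intervals for scaled FPKM (red where called, grey where not) and as open diamonds for the FPKM as deposited. Dotted lines mark a 2-fold change. Cd34 at 3.59 and -2.54 is the only red circle, and diamonds lie to the right of circles in the TAA comparison because scaling lowers the TAA group by 0.64.

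The other capillary markers gave no call. Plvap, Vwf and Pecam1 were not called in any comparison of scaled FPKM by limma, and none had an unadjusted p under 0.05. Plvap (chr8:71497765-71511752, reverse strand) encodes the protein of the diaphragms that close the pores of fenestrated capillaries. It was at 7.62, 16.1 and 15.6 scaled FPKM in the control mice, 14.5, 15.8 and 21.0 in the TAA mice, and 18.6, 18.8 and 19.5 in the recovery mice. The groups overlapped in the TAA comparison, with a log2 fold change of 0.44 (SE 0.29, adjusted p = 0.24), which was 0.08 without control 1. In the deposited FPKM it was 1.07 and called. Recovery mice were all above control mice, by 0.61 (SE 0.28, adjusted p = 0.26), and by 0.25 without control 1. With all mice, 14.6% of all tested genes showed that separation.

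Vwf (chr6:125546774-125686679, forward strand) encodes von Willebrand factor, stored in endothelium of larger vessels and in platelets. It was at 3.37, 4.04 and 3.30 scaled FPKM in the control mice, 2.98, 3.02 and 4.71 in the TAA mice, and 3.84, 4.25 and 3.78 in the recovery mice. The TAA comparison gave -0.03 on the log2 scale (SE 0.20, adjusted p = 0.92). Among 4 tested platelet and megakaryocyte genes, Pf4 alone was called, with a log2 fold change of 2.13 (SE 0.47, adjusted p = 0.0064), and its part in the Vwf level was not tested. Over all tested genes, 17.0% were called higher in the TAA group. Pecam1 (chr11:106654217-106750628, reverse strand), which encodes the junction protein CD31 of all endothelium, was at 4.26, 8.07 and 7.44 scaled FPKM in the control mice. It was at 8.08, 5.27 and 7.13 in the TAA mice and 7.19, 9.07 and 8.38 in the recovery mice. Its log2 fold change in the TAA group was 0.08 (SE 0.26, adjusted p = 0.81), and -0.21 without control 1.

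By level per length, the control mice ran from Clec4g (30.1 ± 10.4 scaled FPKM, SD, n = 3) and Fcgr2b (21.1 ± 8.71) through Plvap (13.1 ± 4.76), Stab2 (11.6 ± 1.85), Stab1 (11.4 ± 0.187) and Oit3 (9.29 ± 2.91) to Pecam1 (6.59 ± 2.04), Vwf (3.57 ± 0.405) and Lyve1 (2.79 ± 1.56). Cd34 was the lowest, at 0.600 ± 0.102. Neighbours from Clec4g to Pecam1, and Vwf and Lyve1, differed by less than their SDs added together, while Pecam1 and Vwf, and Lyve1 and Cd34, differed by more. In the TAA mice Cd34 (8.42 ± 1.79) lay between Stab2 (9.83 ± 0.806) and Oit3 (7.30 ± 0.805). It differed from each by less than their SDs added together.

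A capillary-to-sinusoidal balance was computed within each library, as the mean log2 level of the 4 capillary markers minus that of the 6 sinusoidal markers. It was -1.42, -1.70 and -1.51 in the control mice, -0.69, -0.57 and -0.33 in the TAA mice, and -1.48, -1.13 and -1.49 in the recovery mice. The TAA mice stood above the other mice without overlap, and control and recovery mice overlapped. The group means were -1.54 ± 0.14 (SD, n = 3), -0.53 ± 0.18 and -1.37 ± 0.21. The shift lay in 1 gene. Without Cd34 the means were -0.73 ± 0.06, -0.57 ± 0.25 and -0.72 ± 0.16, and the groups overlapped. The TAA difference was 1.01 with Cd34 and 0.15 without it.

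**Figure D3:**
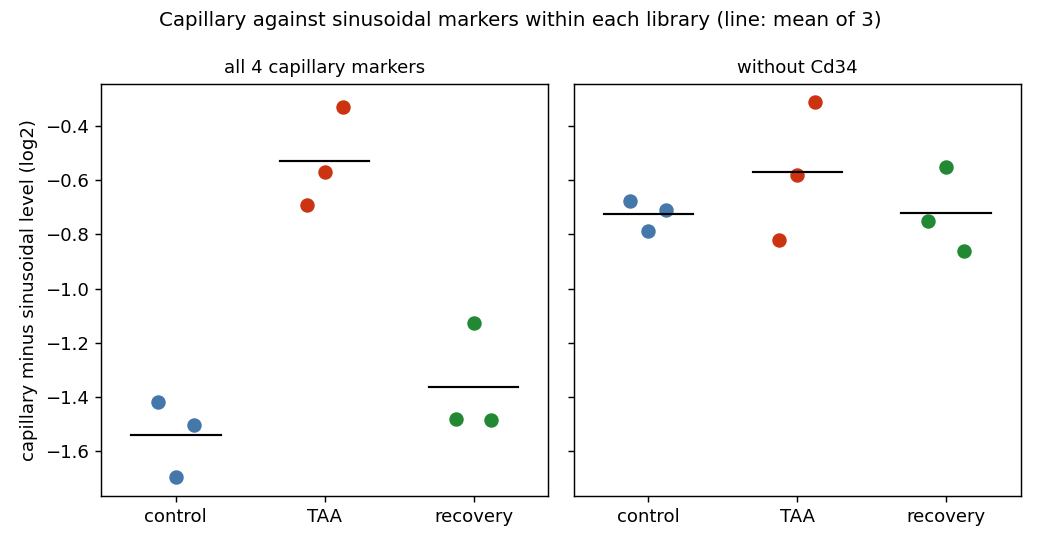
Mean log2 level of capillary markers minus that of sinusoidal markers in each of 9 mice, with all 4 capillary markers on the left and without Cd34 on the right (points are mice, lines are group means). On the left the TAA mice (-0.69 to -0.33) stand above all other mice (-1.70 to -1.13), and on the right the 3 groups overlap.

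Of the 24 pairs of 1 capillary and 1 sinusoidal marker, 19 had a higher mean ratio in the TAA mice than in the controls. In 11 of them every TAA mouse was above every control mouse, and 6 of these 11 held Cd34. The other such pairs were Plvap over Stab2, Clec4g or Oit3, and Pecam1 over Clec4g or Oit3. 1 pair, Vwf over Stab1, was lower in every TAA mouse. The pairs share genes and are not independent. Among single tested genes 32.6% had every TAA mouse above every control mouse, and the share among pairs of other genes was not computed.

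Relative to the mean of 18 pan-endothelial genes of the same library, Cd34 was again the marker that moved most. Its difference from that mean was -2.30 ± 0.26 (log2, SD, n = 3) in the control mice, 1.28 ± 0.12 in the TAA mice and -1.54 ± 0.37 in the recovery mice. Stab1 was 1.76 ± 0.34 above the mean in the control mice, 2.16 ± 0.09 in the TAA mice and 1.41 ± 0.30 in the recovery mice. Its control 1 value, 2.15, lay inside the TAA range. Oit3 was 1.40 ± 0.14 above the mean in the control mice, 1.09 ± 0.05 in the TAA mice and 1.45 ± 0.05 in the recovery mice, with every TAA mouse below every other mouse. Stab2 was at 1.77 ± 0.13, 1.52 ± 0.08 and 1.68 ± 0.05 in the same groups, again with every TAA mouse below every other mouse. The 18 genes include Ecscr, which was itself called higher in the TAA group and so raises the reference there. Neither the Oit3 nor the Stab2 separation was examined without Ecscr. The share of all tested genes with such a separation from this reference was not computed. Pecam1 differed between groups by less than its spread, at 0.92 ± 0.15, 0.98 ± 0.12 and 0.98 ± 0.15. The pan-endothelial mean itself was 1.35 to 2.01 in the control mice, 1.58 to 1.96 in the TAA mice and 2.05 to 2.09 in the recovery mice.

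**Figure D4:**
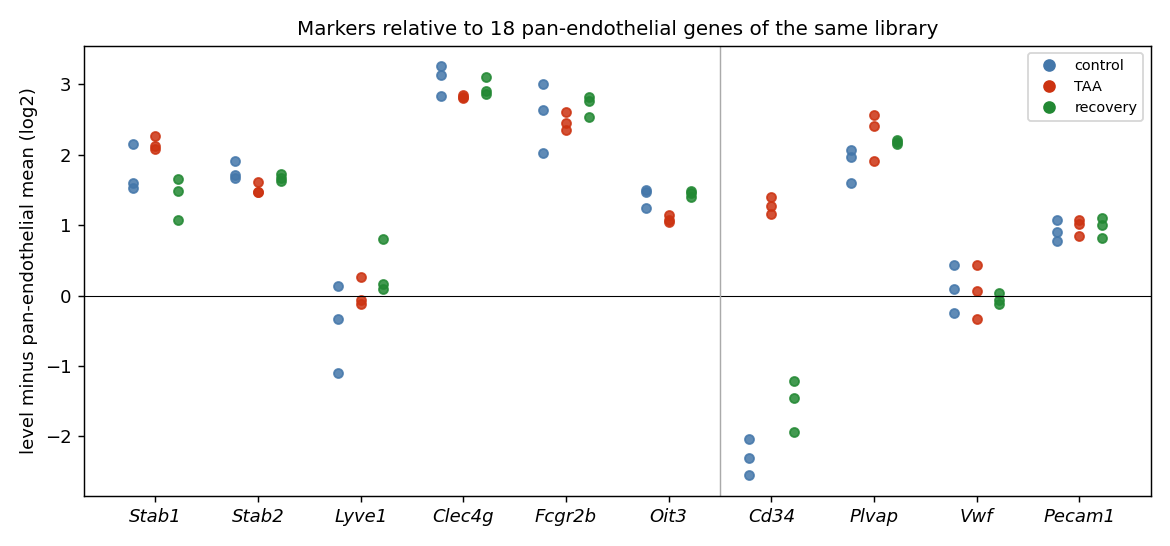
Log2 level of each marker minus the mean log2 level of 18 pan-endothelial genes in the same library, with 1 point per mouse, coloured by group. Cd34 runs from -2.55 to -2.04 in the control mice and from 1.16 to 1.40 in the TAA mice, and the other markers shift by less.

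Further genes of sinusoidal identity also gave no call. These 10 genes include Gata4 and Maf, which encode transcription factors of sinusoidal cells, Ehd3, which acts in endocytic recycling, Mrc1, the mannose receptor, and F8, coagulation factor VIII. By limma 0 of 10 were called between the TAA and control groups, with 3 at an unadjusted p under 0.05, all lower, and the list's median log2 fold change was -0.26, against 0.020 over all tested genes. In the deposited FPKM the median turned to 0.34, against 0.63 over all tested genes. Without control 1 it was -0.50, with 5 of 10 lower at an adjusted p under 0.05 and 0 called. Of all tested genes, 25.0% were lower at that p without control 1. The 4 with the highest level were Ehd3 (-0.65, adjusted p = 0.027), Mrc1 (-0.26, adjusted p = 0.48), Dnase1l3 (-0.56, adjusted p = 0.059) and Maf (0.02, adjusted p = 0.94). F8, chosen after its values were seen, was at -0.65 (adjusted p = 0.0087), and in the deposited FPKM Ehd3 and F8 were at -0.01 and -0.02, Mrc1 at 0.37 and Dnase1l3 at 0.07. Recovery against TAA, none was called, and 9 of 10 were higher in mean, 6 with an adjusted p under 0.05. At that p 24.5% of all tested genes were higher. The list's median was 0.68, against -0.0098 over all tested genes, and 0.19 against -0.55 in the deposited FPKM.

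Among the 18 pan-endothelial genes, Ecscr, an endothelial surface protein of cell migration, alone was called in the TAA group. It was at 0.268, 0.652 and 1.07 scaled FPKM in the control mice, 3.29, 3.33 and 2.43 in the TAA mice and 1.5, 1.93 and 1.46 in the recovery mice. Its groups did not overlap, with a log2 fold change of 2.17 (SE 0.39, adjusted p = 0.0026), and the recovery mice lay between the others as they did for Cd34. Over all tested genes, 17.0% were called higher in the TAA group, and 32.6% did not overlap with the control group in that direction. The list's median was -0.03 with 9 genes higher and 9 lower in mean, and -0.18 without control 1. In the deposited FPKM it was 0.59, against 0.63 over all tested genes.

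Of 11 tested genes of activated or continuous endothelium, 3 were called higher and 0 lower, where 17.0% of all tested genes were called higher. The 3 were Vcam1 (1.79, SE 0.26, adjusted p = 0.00095), the leukocyte adhesion molecule, Angpt2 (1.28, SE 0.34, adjusted p = 0.014), a vessel-destabilizing ligand of TIE2, and Fabp4 (1.12, SE 0.22, adjusted p = 0.0039), a fatty acid carrier of capillaries. Without control 1 Vcam1 was the 1 gene of 11 called, against 16.5% of all tested genes, and in the deposited FPKM 8 of 11 were called higher, against 31.1%. Vcam1 is also made by stellate cells and macrophages. Apln, Aplnr and Sele were under the filter on low values, and Apln, a ligand of sprouting vessels, was at most 0.0112 scaled FPKM in the control mice and at most 0.0846 in the TAA mice. Vcam1 and Angpt2 fell from the TAA to the recovery group, by 1.28 and 1.29 on the log2 scale (adjusted p = 6.6e-05 and 0.0066).

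Of 8 endothelial signals to hepatocytes, which include the WNT ligands of liver zonation and the BMPs of iron control, Jag1, a NOTCH ligand, alone was called between the TAA and control groups. It was at 2.05, 1.67 and 1.42 scaled FPKM in the control mice, 5.12, 3.89 and 3.95 in the TAA mice and 2.06, 2.13 and 2.09 in the recovery mice. The TAA mice did not overlap with the others, with a log2 fold change of 1.29 (SE 0.18, adjusted p = 0.00072). Bile duct cells also make Jag1. Over all tested genes, 17.0% were called higher in the TAA group, and 32.6% did not overlap with the control group in that direction. The list's median was 0.05, and -0.02 without control 1. Recovery against TAA, Jag1 and Kitl, the ligand of the receptor KIT, were both called lower (adjusted p = 0.00076 and 0.0024), each just past the 2-fold threshold. Either call was lost without TAA 1 or recovery 3, that of Jag1 also without recovery 1 and that of Kitl also without TAA 2. Over all tested genes, 14.3% were called lower in recovery than in TAA mice.

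Of 4 flow and vasodilator genes, Thbd, which encodes the anticoagulant thrombomodulin, was called in the TAA group (1.37, SE 0.20, adjusted p = 0.001). Over all tested genes, 17.0% were called higher in that group. Klf2, a transcription factor induced by blood flow, was at 3.53, 4.23 and 5.11 scaled FPKM in the control mice and 3.73, 3.29 and 4.74 in the TAA mice. It was at 10.1, 9.36 and 7.27 in the recovery mice, above every other mouse. Recovery against TAA, the log2 fold change was 1.16 (SE 0.17, adjusted p = 0.001), and recovery against control it was 1.04 (SE 0.18, adjusted p = 0.042). The call between the recovery and TAA groups was lost in the deposited FPKM, at 0.61 on the log2 scale. In scaled FPKM 7.12% of all tested genes were called higher in recovery than in TAA mice, and 0.589% higher than in controls.

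The basement membrane list moved most. 9 of 11 genes rose and 1 fell in the TAA group, where 17.0% of all tested genes were called higher and 8.02% lower. The median log2 fold change was 1.63, against list medians from -0.26 to 0.92 in the endothelial lists. The median of the stellate cell and fibroblast markers was 1.34, and the cells behind the basement membrane RNAs were not tested. Nid1, which encodes the linker nidogen, rose by 3.17 (SE 0.18, adjusted p = 1.4e-05), and Col4a1 and Col4a2, the main chains of basement membrane collagen, by 2.31 (SE 0.21, adjusted p = 8.7e-05) and 2.21 (SE 0.22, adjusted p = 0.00015). Col15a1, a collagen of vessel basement membranes, rose by 1.87 (SE 0.17, adjusted p = 0.00011). Without control 1, Nid2 and Hspg2 were no longer called. Col18a1, the source of endostatin, was the exception. It was at 209.3, 209.7 and 210.4 scaled FPKM in the control mice and 105.1, 86.8 and 92.9 in the TAA mice, a log2 fold change of -1.15 (SE 0.09, adjusted p = 6.4e-05) that was -0.51 and not called in the deposited FPKM. Hepatocytes are the main source of Col18a1 in liver. Recovery against TAA, 7 of 11 fell, where 14.3% of all tested genes were called lower. Col18a1 rose by 1.12, or by 0.56 and not called in the deposited FPKM. Recovery against control, limma called 0 of 11, with 5 at an unadjusted p under 0.05, all higher. Control 1 was the lowest control for all 11 genes. The list's median in that comparison was 0.34 with control 1 and 0.19 without it.

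Markers of other cells moved with Cd34 and with the basement membrane genes. Of 8 stellate cell and fibroblast markers, 6 were called higher in the TAA group, against 17.0% of all tested genes. The largest changes were those of Pdgfrb (2.21, adjusted p = 6.1e-05), Pi16 (1.59, adjusted p = 0.0017), Lrat (1.48, adjusted p = 0.0013) and Dpt (1.44, adjusted p = 0.026). The summed level of the 8 was 29.4 to 39.8 scaled FPKM in the control mice, 70.9 to 81.0 in the TAA mice and 30.1 to 37.3 in the recovery mice, and none was at 0 in all mice of a group. Without TAA 3, Lrat and Pdgfrb were still called higher, Pi16, Dpt, Des and Thy1 were not, and Clec3b was called lower. The call of Thy1 was also lost without control 1 or TAA 1, and that of Dpt without control 2, control 3 or TAA 1. Pi16 and Dpt mark fibroblasts of a kind that also carries Cd34, and Pi16 was at 0 to 0.0301 scaled FPKM in the control mice and 0.182 to 0.320 in the TAA mice. Clec3b, in the same list, was not called with all mice. It was at 0.183, 0.248 and 0.282 scaled FPKM in the control mice and 0.112, 0.0199 and 1.11 in the TAA mice. The part of such fibroblasts in the Cd34 level was not tested. Of 4 macrophage markers, Lyz2 (1.42) and Cd68 (1.21) were called higher, against the same 17.0% of all tested genes. The summed level of the 4 was 68.4 to 73.0 scaled FPKM in the control mice and 130.2 to 196.4 in the TAA mice. Of 5 Kupffer cell markers Marco alone was called (2.05, adjusted p = 0.0072), joined by Timd4 as lower without control 1, and the sum was 34.7 to 111.1 in the control mice, 74.6 to 90.2 in the TAA mice and 123.7 to 170.1 in the recovery mice. Of 4 tested lymphatic entries, Pdpn was called higher (1.60) and Prox1 lower (-1.25), and Prox1, also a hepatocyte gene, was at -0.62 and not called in the deposited FPKM. Of 5 hepatocyte markers Apoa1 (-1.55) and Hnf4a (-1.12) were called lower, neither of them in the deposited FPKM. Of 3 other Fc gamma receptor genes, Fcgr1 was called higher (1.02, adjusted p = 0.019), a call lost without control 2, control 3, TAA 1 or TAA 3. Beside the calls in these short lists, 17.0% of all tested genes were called higher and 8.02% lower in the TAA group.

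**Figure D5:**
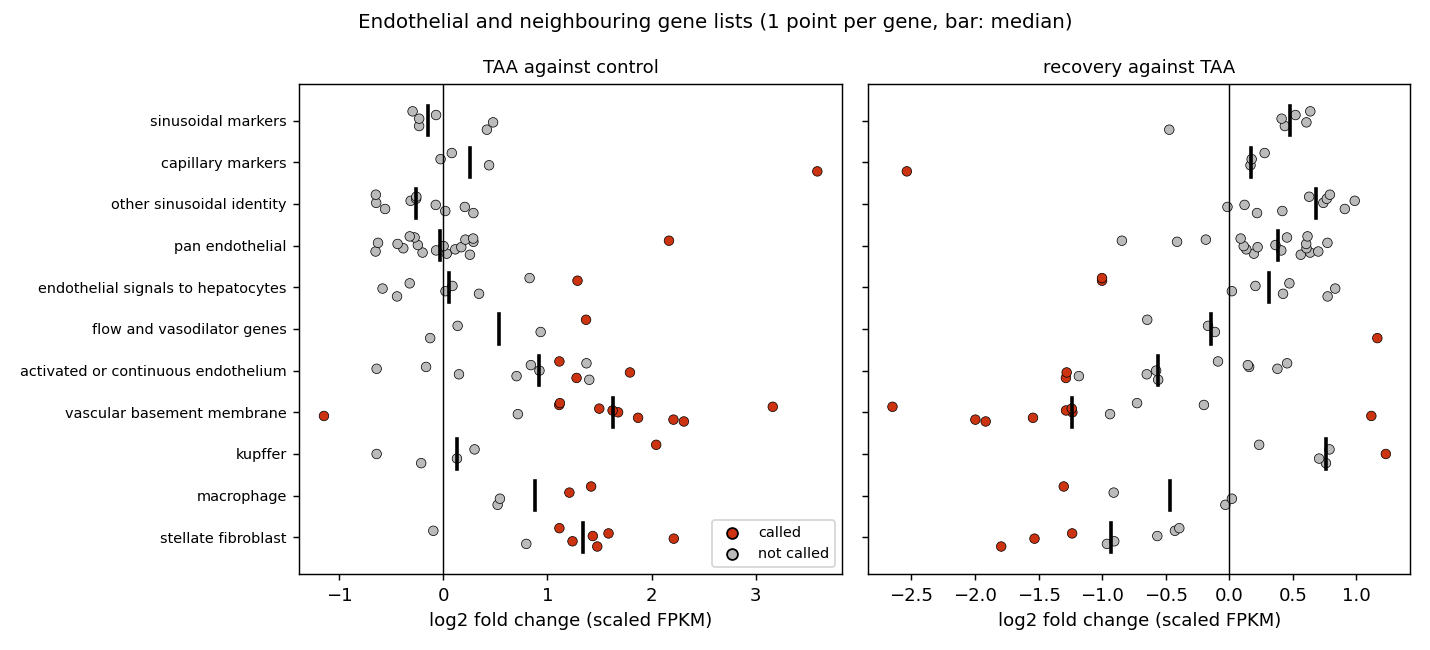
Log2 fold changes of scaled FPKM for endothelial and neighbouring gene lists in 2 comparisons, with 1 point per gene (red where called), a bar at each list's median and lists as rows. Basement membrane genes (median 1.63) and stellate and fibroblast markers (median 1.34) lie to the right in the TAA comparison, while with all mice the sinusoidal markers (median -0.15) and pan-endothelial genes (median -0.03) lie about 0.

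After withdrawal, few endothelial genes differed from the control group by this test. Recovery against control, 0.589% of tested genes were called higher and 0.412% lower. In limma 0 of 10 markers were called, with 1 (Cd34) at an unadjusted p under 0.05. Ly6c1, a capillary surface protein of mice, and Klf2 were called among the other endothelial genes. Ly6c1 was at 0.108, 0.174 and 0.355 scaled FPKM in the control mice, 0.208, 1.06 and 1.17 in the TAA mice, and 1.12, 1.06 and 0.721 in the recovery mice, 1.83 higher than in the control mice on the log2 scale (SE 0.33, adjusted p = 0.046). Both calls were lost on leaving out any 1 of the 6 mice, without a change of direction (1.58 to 2.15 for Ly6c1 and 0.90 to 1.18 for Klf2).

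Genes whose levels followed each marker over the 9 libraries were listed by Pearson's r, as a description, since the libraries share 3 groups and the position of control 1. Stab2 ran with Mylip (r = 0.99), Dnase1l3 (0.99) and Bmp2 (0.98), and Oit3 with Mrc1 (0.99), Adgrl4 (0.97) and Mylip (0.97), so that several of these names are endothelial genes. Lyve1 ran with Cdh5 (0.97), Rgl1 (0.94) and Ntn4 (0.94), and Pecam1 with Slc43a3 (0.96), Eng (0.95) and Arhgap31 (0.94). Clec4g ran with Tmem132e (0.95), Itga10 (0.95) and Clec14a (0.94). Stab1 ran with Ankrd13b (0.98), Ttll12 (0.95) and Brsk1 (0.95), none of them in the endothelial lists. Cd34 ran with Lynx1 (0.997), Bcam (0.995) and Bicc1 (0.995), also outside those lists. Plvap ran with Acin1 (0.95), Evi2b (0.95) and Rps19bp1 (0.94), Fcgr2b with Pa2g4 (0.96), Casp8 (0.89) and Yaf2 (0.89), and Vwf with CAAA01118383.1 (0.90), Bahcc1 (0.89) and Med27 (0.87). Between the markers themselves, Stab2 and Oit3 had an r of 0.98, whereas Stab1 and Stab2 had an r of -0.44 and Stab1 and Cd34 of 0.68.

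Exons of 5 markers overlap a gene on the other strand, by 112 bases for Stab1 (Nt5dc2), 141 for Stab2, 146 for Clec4g, 155 for Fcgr2b and 148 for Cd34. The strand setting of the counting is not given in the sources used here, so reads of such overlaps cannot be told apart.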

How the data were processed

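The 10 markers and the 16 gene lists were chosen with earlier results of these data known. A list of markers of another cell type is not reported here. Total RNA of 9 livers was sequenced as paired-end reads (NEBNext Ultra RNA kit). The authors mapped reads to mm10 with HISAT2 2.2.1, counted them with featureCounts 1.5.0-p3 and deposited FPKM values with 1 column per mouse and no scaling between mice. Loci of the markers were identical in GENCODE M21.

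Scaling factors were medians of ratios over the 14005 genes above 0 in all libraries, since DESeq2, the authors' tool, needs counts. Of low values, 56.0% to 62.1% per library were whole numbers of fragments (15.0% by chance), which gave depth but no counts. The 14094 genes whose mean FPKM reached 0.1 were tested by limma 3.58.1 under R 4.3.3 (lmFit, eBayes with a trend, two-sided, 6 libraries per comparison) on log2(scaled FPKM + 0.1), with Benjamini-Hochberg adjustment over all tested genes. Replicates were separate mice by their labels, and SD is between mice. The steps were tested on simulated data. Python 3.11.15 with pandas 2.3.3 and numpy 2.4.6 prepared the tables.

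All markers are given by mouse. From each other list, the 4 called genes with the largest change between the TAA and control groups are named (or the 4 highest genes where none was called), with those called between the recovery and control groups, and for each marker the 3 genes of highest r. Alternatives covered the pseudocount, filter, scaling, fit, test, replicate numbers and each mouse. Leaving out Cd34, and the list counts without control 1, were added after seeing the data. Same-numbered mice did not deviate together (r of -0.07 to 0.12), so no pairing was used. Small RNA libraries were not analysed here.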

Additional observations from a re-analysis of the deposited data

How the results depend on the processing

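The calls of Cd34 in the TAA and recovery groups held under every alternative, and the other marker calls changed with the scaling or the fit. With FPKM as deposited, 1 sinusoidal marker and 2 capillary markers were called between the TAA and control groups, and 1 sinusoidal marker between the recovery and TAA groups (Stab1 at 1.05 and -1.03, Plvap at 1.07). The 9-library fit called 1 capillary marker between the recovery and control groups. Directions turned with FPKM as deposited in the TAA group for Stab2 (0.40), Clec4g (0.40), Fcgr2b (0.57), Oit3 (0.33) and Vwf (0.59). Between the recovery and TAA groups they turned for Stab2 (-0.12), Clec4g (-0.15), Fcgr2b (-0.039), Plvap (-0.39), Vwf (-0.37) and Pecam1 (-0.28), and against the control group for Stab1 (0.022). Quantile normalization turned Clec4g (0.13) and Fcgr2b (0.23) in the TAA group and Plvap (-0.076) between the recovery and TAA groups. Without 1 mouse each, the TAA difference ran from -0.074 to 0.85 for Lyve1, -0.21 to 0.25 for Pecam1, -0.25 to 0.24 for Fcgr2b and -0.23 to 0.087 for Vwf, and the recovery difference from the control group from -0.16 to 0.36 for Clec4g and -0.17 to 0.11 for Stab1.

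Over all tested genes, 3521, 3022 and 141 were called in the TAA-control, recovery-TAA and recovery-control comparisons. A pseudocount of 1 gave 1790, 1464 and 83, and a test against a fold change of 2 gave 1441, 1084 and 0. A mean FPKM of at least 1, which tests fewer genes, gave 2204 and 1897 in the first and second. Between the recovery and control groups no filter gave 49, the 9-library fit 237, and leaving out 1 mouse 27 to 100. The replicate block gave 17 there, against 3517 and 3031 in the other comparisons, and changed no marker call. The capillary-to-sinusoidal difference between the TAA and control groups was 0.76 with a pseudocount of 1, 0.71 as a ratio of summed FPKM and 0.15 without Cd34. Between the recovery and TAA groups it was -0.84, -0.48 as a ratio of sums and -0.15 without Cd34. Apart from these constructions, the cause was not tested. Depth limited the control values of Cd34 and Lyve1 most, with at least 83 and 70 fragments each.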
